A study of Nicotiana tabacum with 6 samples.

Results

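The cytokinin genes of cultivated tobacco (Nicotiana tabacum) were examined in seedlings grown with a full or a low nitrogen supply. Members were all genes of the deposited table whose first symbol named a cytokinin receptor or other histidine kinase (AHK), a phosphotransfer protein (AHP), a response regulator (ARR), a cytokinin oxidase (CKX), a LOG enzyme or an isopentenyltransferase (IPT), followed by a number. The rule found 129 of 69500 genes, under 24 distinct names. Control seedlings received 7.5 mM ammonium nitrate and low nitrogen seedlings 0.75 mM, for 15 days in a nutrient solution renewed every 7 days, with 3 libraries of polyadenylated RNA in each group. The labels name the material as seedling and give no cultivar, genotype, organ or age, and nothing in them ties a library to a separate plant or culture. The p-values therefore measure only the spread between these 6 samples, which may be technical.

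Cytokinins are adenine derivatives that promote cell division and shoot growth and delay leaf senescence, and in Arabidopsis they carry information on nitrate supply from root to shoot. IPT enzymes make the precursor, LOG enzymes release the active base and CKX enzymes destroy it. Receptors of the AHK family pass a phosphate through AHP proteins to type-B ARR transcription factors, which switch on target genes, among them the type-A ARR genes, whose products dampen the response.

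The symbols are those of the most similar known protein, mostly from Arabidopsis, so that a symbol names a family of tobacco genes and not a single counterpart. One name needs care. The 9 genes named LOG2 carry the locus At3g09770 and the synonyms RF215 and RIG2 beside the symbol, which belong to an Arabidopsis ubiquitin ligase and not to a LOG enzyme of cytokinin activation. They are given apart from the other 120 members. The genes named AHK1 and AHK5 are related histidine kinases that are not cytokinin receptors in Arabidopsis. All 7 genes with a receptor symbol under the rule carried the name AHK2. Only 44455 of the 69500 genes carried a symbol, so receptors among the rest would be missed.

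Libraries held 13027374 to 15620067 counts. Levels are given in CPM (read counts relative to library size, with TMM scaling), and a fold change is the low nitrogen level divided by the control level, given as its log2. Transcripts of 152 photosynthesis genes summed to 130, 81.0 and 1826 CPM in replicates 1 to 3 of the control group and to 1026, 460 and 180 CPM in low nitrogen replicates 1 to 3. Control replicate 3 and low nitrogen replicate 1 thus stood above the others in green-tissue transcripts. Transcripts of 47 root marker genes summed to 1409 to 1785 CPM with no such gap in the sum, of which QPT alone gave 679 to 1051 CPM. Other markers differed between libraries. SKOR was at 275, 360 and 156 CPM across control libraries and at 287, 327 and 166 CPM under low nitrogen. PMT2 was highest in control replicate 3, at 134 CPM, and lowest in control replicate 1, at 53.4 CPM. The sum therefore does not show that root composition was even. The root marker WOX5 was at 0 in all libraries. In bulk seedling material of unstated organ, fewer cells of a type and less RNA per cell cannot be told apart.

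Of the 129 members, 22 had no count in any library and 38 more were too sparse to test, with 1 to 63 counts over the 6 libraries. None of the 69 tested genes passed the threshold. edgeR's quasi-likelihood test with Benjamini-Hochberg adjustment over all 38482 tested genes placed 0 members at an adjusted p under 0.05, against 0% of all genes (smallest adjusted p among members 0.305). At an unadjusted p under 0.05, 5 members were higher and 3 lower in low nitrogen, against 6.1% and 5.66% of all genes tested, which for 69 genes is a share near the background. Fold changes were above 0 for 42 of 69 members, against 50.3% of all genes, with a median log2 value of 0.08, against 0.0029 over all genes. The members came close to the share of all genes in 3 settings. With no filter on low counts 54 of 107 were above 0 (median 0.00078), against 48.0% of all genes (median -0.02). There were 38 of 74 without control replicate 1 (48.9% of all genes) and 38 of 75 without low nitrogen replicate 1 (48.5%). Without the LOG2 genes, 38 of 62 were above 0, and the unadjusted p was under 0.05 for 3 with higher and 3 with lower levels. Leaving out control replicate 3 gave 7 higher and 6 lower of 74, against 8.60% and 6.69% of all genes in that setting. Leaving out control replicate 1 gave 2 higher and 3 lower (2.87% and 2.76% of all genes), as did leaving out low nitrogen replicate 1 (3.17% and 3.34%). There were 3 higher and 2 lower of 71 without control replicate 2 (5.32% and 4.96% of all genes). Without low nitrogen replicate 2 there were 3 higher and 3 lower of 74 (4.63% and 4.71%). Without low nitrogen replicate 3 there were 7 higher and 2 lower of 74 (7.25% and 7.14%). DESeq2, run as an alternative, placed 2 members past the threshold against 1.53% of all genes, both of them higher (0.709% of all genes) and both AHK2 genes, with 0 lower (0.819% of all genes). limma-voom placed 0 members past it, against 0% of all genes.

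**Figure D1:**
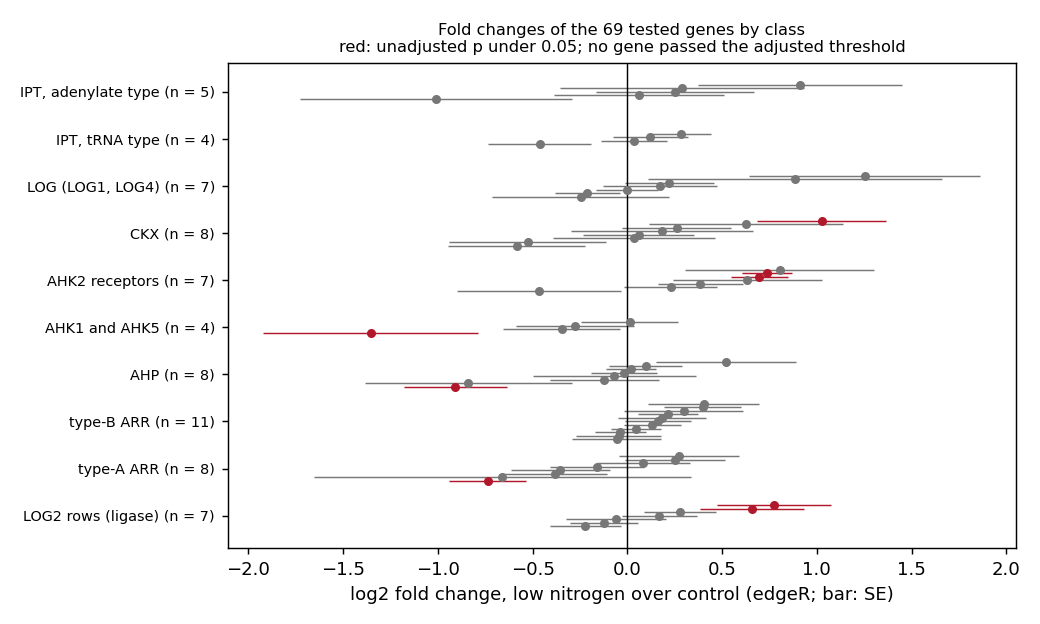
Log2 fold change (low nitrogen over control, x axis) of each of the 69 tested genes with its standard error, in rows by class. Red points have an unadjusted p under 0.05, which holds for 5 genes above 0 and 3 below, and 6 of the 7 AHK2 genes lie above 0.

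The smallest p-values among the members belonged to receptor genes. AHK2 encodes a histidine kinase of the endoplasmic reticulum membrane that binds cytokinin. One AHK2 gene (Nitab4.5_0000996g0050) was at 40.0, 45.4 and 46.9 CPM in replicates 1 to 3 of the control group and at 76.9, 77.6 and 66.0 CPM in low nitrogen replicates 1 to 3. A second (Nitab4.5_0011720g0010) was at 28.6, 35.7 and 37.2 CPM across control libraries and at 60.2, 54.5 and 49.9 CPM under low nitrogen. In both genes every low nitrogen library lay above every control library. Control replicate 3 lay near the other controls but was the highest of them in both, and low nitrogen replicate 3 was the lowest of its group. The order of the second gene within low nitrogen was also that of the photosynthesis transcripts, at 1026, 460 and 180 CPM. The part of green tissue in these genes was not tested. The first gene had 44.1 ± 3.67 CPM in the control group and 73.5 ± 6.53 CPM under low nitrogen (SD, n = 3), a fold of 1.67 (log2 fold change 0.74, SE 0.13). The second had 33.8 ± 4.59 and 54.9 ± 5.12 CPM, a fold of 1.62 (log2 fold change 0.70, SE 0.15). Their edgeR adjusted p were 0.305 and 0.332, and their DESeq2 adjusted p were 0.00136 and 0.0193.

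The size of the difference held when libraries were left out, while the call did not. The log2 fold change stayed between 0.66 and 0.81 for Nitab4.5_0000996g0050 and between 0.58 and 0.76 for Nitab4.5_0011720g0010 when any 1 library was left out. The DESeq2 call of the first gene ended without control replicate 1 (adjusted p 0.0805), low nitrogen replicate 1 (0.0698) or low nitrogen replicate 2 (0.0578). That of the second ended in the same 3 cases (0.282, 0.314 and 0.149) and without control replicate 2 (0.0946). With control replicate 3 and low nitrogen replicate 1 both left out, the values were 0.126 and 0.246. Among the 69 tested members, 7 had groups that did not overlap with low nitrogen higher and 2 with low nitrogen lower, against 9.66% and 8.54% of all genes.

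**Figure D2:**
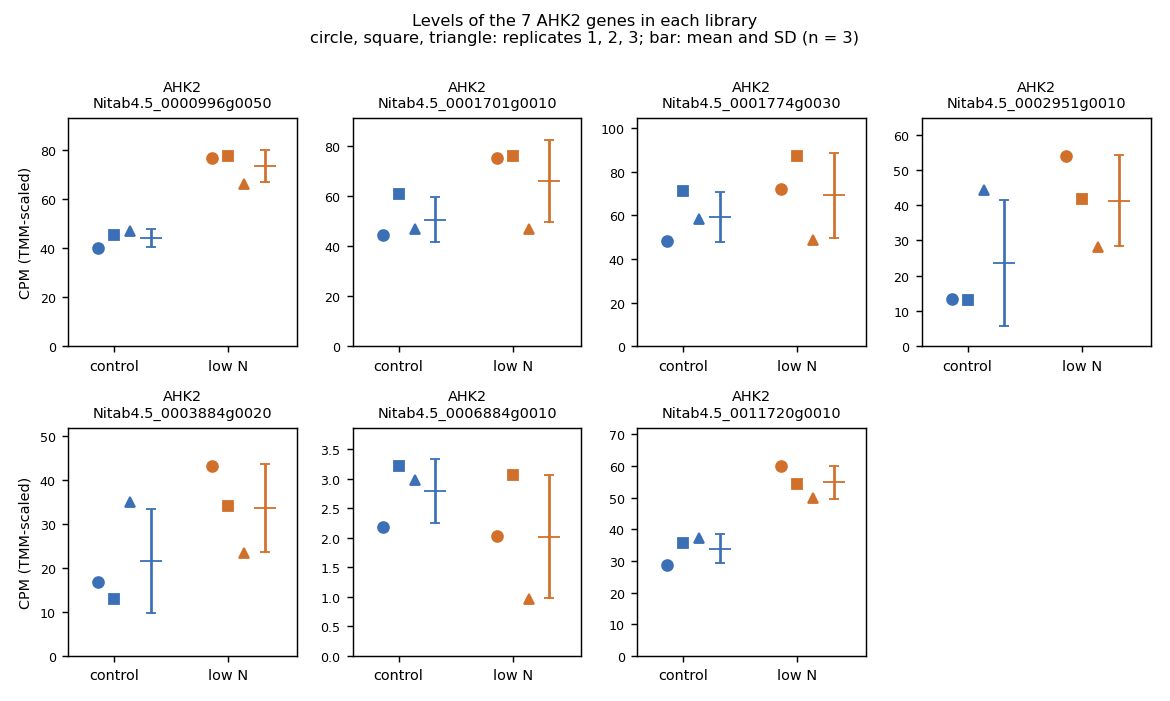
CPM after TMM scaling (y axis) of the 7 AHK2 genes in each library, control in blue and low nitrogen in orange, with the mean and SD of 3 libraries. In Nitab4.5_0000996g0050 and Nitab4.5_0011720g0010 the groups do not overlap, and in Nitab4.5_0002951g0010 control replicate 3, at 44.2 CPM, lies far above the other 2 controls.

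Another pair of AHK2 genes, described after their values were seen, was divided within the control group. Nitab4.5_0002951g0010 was at 13.5, 13.1 and 44.2 CPM in replicates 1 to 3 of the control group and at 54.0, 41.8 and 28.0 CPM in low nitrogen replicates 1 to 3. Nitab4.5_0003884g0020 was at 16.8, 13.0 and 35.1 CPM across control libraries and at 43.3, 34.2 and 23.4 CPM under low nitrogen. In both, control replicates 1 and 2 lay below all low nitrogen libraries and control replicate 3 lay among them. The order within low nitrogen, with replicate 1 highest and replicate 3 lowest, was also that of the photosynthesis transcripts, at 1026, 460 and 180 CPM, and control replicate 3 was the highest control in both measures. The part of green tissue in this pattern was not tested. The log2 fold changes were 0.80 (SE 0.50) and 0.63 (SE 0.39), with edgeR adjusted p of 0.539 and 0.537. They were 0.52 and 0.48 without control replicate 1, 0.52 and 0.37 without control replicate 2, and 0.55 and 0.40 without low nitrogen replicate 1. Without control replicate 3 they were 1.62 (adjusted p 0.0948) and 1.16 (adjusted p 0.150). Both genes then passed the DESeq2 threshold, among 1669 of all 38926 genes tested in that setting. When low nitrogen replicate 1 was left out as well, the log2 fold changes were 1.38 (adjusted p 0.161) and 0.94 (adjusted p 0.282). The first of the pair alone then passed the DESeq2 threshold, among 783 of all 38402 genes.

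The other AHK2 genes overlapped between the groups. Nitab4.5_0001701g0010 was at 50.7 ± 8.89 CPM in the control group and 66.2 ± 16.6 CPM under low nitrogen, a log2 fold change of 0.39 (SE 0.22), and its low nitrogen replicate 3, at 47.1 CPM, lay at the control level. Nitab4.5_0001774g0030 was at 59.2 ± 11.6 and 69.3 ± 19.5 CPM, giving a log2 fold change of 0.23 (SE 0.24), and low nitrogen replicate 3 was again the lowest of its group at 48.6 CPM. The sparse Nitab4.5_0006884g0010 was the single AHK2 gene with a fold change below 0, at 2.80 ± 0.539 and 2.02 ± 1.04 CPM. Summed over the 7 genes, AHK2 transcripts were at 194, 242 and 271 CPM across control libraries and at 384, 375 and 264 CPM under low nitrogen. The sums overlapped, since low nitrogen replicate 3 lay between control replicates 2 and 3. The pair with the divided controls made up 6.97% and 8.69% of AHK2 reads in control replicate 1 and 16.3% and 12.9% in control replicate 3, while Nitab4.5_0000996g0050 took 17.3% to 20.6% across control libraries and 20.04% to 24.99% in low nitrogen. These shares depend on gene length and are compared between libraries only. If the 7 genes include near-identical copies, the counting may have split reads between them.

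The related kinases AHK1 and AHK5 had fold changes below or near 0. AHK1 is known in Arabidopsis as a kinase of the osmotic stress response. Nitab4.5_0000368g0190, named AHK1, was at 14.5, 8.33 and 2.97 CPM across control libraries and at 4.62, 3.43 and 2.01 CPM under low nitrogen. Control replicate 3 lay within the low nitrogen range, and the log2 fold change was -1.35 (SE 0.57, unadjusted p 0.0466, edgeR adjusted p 0.420). Without control replicate 3 the value was -1.78, and the gene was among 1669 of all genes past the DESeq2 threshold. With low nitrogen replicate 1 left out as well, it was among 783 of all genes past that threshold. Without control replicate 1 the log2 fold change was -0.76 (unadjusted p 0.200). The AHK1 genes Nitab4.5_0001658g0020 and Nitab4.5_0001892g0050 overlapped between the groups, the first at 132 ± 53.2 CPM in the control group and 103 ± 16.4 CPM under low nitrogen, the second at 94.0 ± 38.6 and 77.5 ± 17.2 CPM. AHK5 (Nitab4.5_0000502g0160) was at 6.49 ± 0.713 and 6.54 ± 2.0 CPM. Of the 7 AHK1 genes, 3 had no count in any library, and a further one had 40 counts in the control group and 12 under low nitrogen (scaled ratio 0.267, 95% interval 0.127 to 0.519, which covers counting error only).

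Synthesis genes of the adenylate type were sparse. These IPT enzymes attach the side chain to adenine nucleotides and set the rate of cytokinin synthesis in Arabidopsis. Of 15 genes, 4 had no count in any library and 5 were tested. The 4 IPT1 genes held 2 counts in all. A count of 0 in a library allows a level of up to 0.187 to 0.244 CPM (3 counts, counting error only), so that low expression of these genes was not detectable at this depth.

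The tested IPT4 and IPT8 genes all overlapped between the groups. IPT4 (Nitab4.5_0000057g0220) was at 0.568, 0.225 and 0.850 CPM across control libraries and at 0.979, 1.37 and 0.763 CPM under low nitrogen, a log2 fold change of 0.91 (SE 0.54, edgeR adjusted p 0.521). IPT8 (Nitab4.5_0001690g0020) was at 1.87, 4.65 and 4.96 CPM and at 5.74, 4.996 and 2.98 CPM, and IPT8 (Nitab4.5_0000267g0090) was at 2.55 ± 0.523 and 2.66 ± 1.41 CPM. Control replicate 3 stood apart in the remaining IPT8 genes. Nitab4.5_0001028g0160 was at 0.568, 0.375 and 2.19 CPM across control libraries and at 1.12, 1.499 and 1.25 CPM under low nitrogen. Nitab4.5_0002386g0030 was at 0.731, 0.525 and 3.33 CPM across control libraries and at 0.910, 0.749 and 0.624 CPM under low nitrogen. Without control replicate 3 the log2 fold change of the first moved from 0.29 to 1.43 (unadjusted p 0.0243, edgeR adjusted p 0.261), and that of the second from -1.01 to 0.27. The summed level of the 15 genes was 7.31, 10.9 and 16.8 CPM across control libraries and 14.3, 14.4 and 8.12 CPM under low nitrogen.

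The IPT genes of the tRNA type were all tested. IPT2 and IPT9 modify transfer RNA, whose breakdown is a source of cis-zeatin. IPT2 (Nitab4.5_0006089g0050) was at 8.28, 10.6 and 10.3 CPM across control libraries and at 12.2, 11.6 and 11.7 CPM under low nitrogen. The groups did not overlap, but the difference was small (log2 fold change 0.28, SE 0.16, edgeR adjusted p 0.504). The other IPT2 gene (Nitab4.5_0011810g0010) was at 11.7 ± 1.35 and 12.8 ± 2.71 CPM. The IPT9 genes were at 5.84 ± 0.349 and 5.99 ± 0.276 CPM (Nitab4.5_0005440g0050) and at 3.99 ± 0.849 and 2.89 ± 0.507 CPM (Nitab4.5_0000035g0040, log2 fold change -0.46, SE 0.27). Summed, the 4 genes were at 31.3 ± 1.49 CPM in the control group and 33.5 ± 2.73 CPM under low nitrogen.

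Among LOG enzymes, which turn cytokinin nucleotides into the active base in 1 step, no gene had an unadjusted p under 0.05. Of 18 genes named LOG1 or LOG4, 7 were tested, and 11.8% of all genes had such a p. The LOG1 gene Nitab4.5_0001790g0010 was at 44.0 ± 4.91 CPM in the control group and 43.9 ± 7.55 CPM under low nitrogen, a log2 fold change of 0.00 (SE 0.16). LOG1 (Nitab4.5_0017527g0010) was at 21.8, 22.9 and 21.1 CPM and at 14.7, 21.2 and 20.9 CPM, with low nitrogen replicate 1 alone below the rest. LOG4 (Nitab4.5_0000602g0060) was at 0.325, 1.58 and 1.77 CPM across control libraries and at 4.62, 2.37 and 1.87 CPM under low nitrogen. Its groups did not overlap, although the margin between control replicate 3 and low nitrogen replicate 3 was narrow (log2 fold change 1.25, SE 0.61, edgeR adjusted p 0.461). The sparse LOG4 gene Nitab4.5_0013463g0010 was at 0.575 ± 0.494 and 1.04 ± 0.733 CPM. All 3 tested LOG1 genes had fold changes below 0 and all 4 tested LOG4 genes above 0, against 50.3% of all genes above 0. These directions did not all hold with 1 library left out. LOG1 (Nitab4.5_0001790g0010) reached 0.091 and LOG1 (Nitab4.5_0001730g0060) 0.36, both without control replicate 2. LOG4 (Nitab4.5_0001939g0020) was at -0.094 without control replicate 1. The sums of both names overlapped between the groups, at 79.2 ± 13.8 and 74.0 ± 14.2 CPM for LOG1 and at 42.0 ± 7.27 and 49.1 ± 6.88 CPM for LOG4.

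CKX enzymes cleave the cytokinin side chain and end the signal. Of 8 tested breakdown genes, 1 had groups that did not overlap, a share near the 9.66% of all genes with low nitrogen higher. CKX6 (Nitab4.5_0000341g0010) was at 4.39, 3.38 and 7.79 CPM across control libraries and at 11.3, 12.6 and 7.84 CPM under low nitrogen. Control replicate 3 and low nitrogen replicate 3 were nearly level, and the other libraries lay far apart. The gene had 5.18 ± 2.31 and 10.6 ± 2.45 CPM, a fold of 2.04 (log2 fold change 1.03, SE 0.34, unadjusted p 0.0190, edgeR adjusted p 0.385). The log2 value was 1.44 without control replicate 3, and 0.80 at the lowest with another library left out. Without control replicate 3 the gene was among 1669 of all genes past the DESeq2 threshold.

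The other oxidase genes overlapped. CKX6 (Nitab4.5_0000446g0210) was at 26.3, 11.7 and 15.6 CPM across control libraries and at 17.5, 21.7 and 16.6 CPM under low nitrogen, with control replicate 1 as the highest library. CKX6 (Nitab4.5_0000316g0350) was at 2.20 ± 0.254 and 1.53 ± 0.675 CPM. CKX9 (Nitab4.5_0005779g0060), named after a rice gene, was at 13.0, 8.18 and 8.50 CPM and at 5.32, 10.2 and 4.23 CPM, giving a log2 fold change of -0.58 (SE 0.36). The value ran from -1.05 without low nitrogen replicate 2 to -0.35 without control replicate 1 or low nitrogen replicate 3. Both CKX1 genes and 1 of the 6 CKX3 genes had no count. Summed over 18 genes, CKX transcripts were at 50.6 ± 10.3 CPM in the control group and 55.3 ± 11.97 CPM under low nitrogen.

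**Figure D3:**
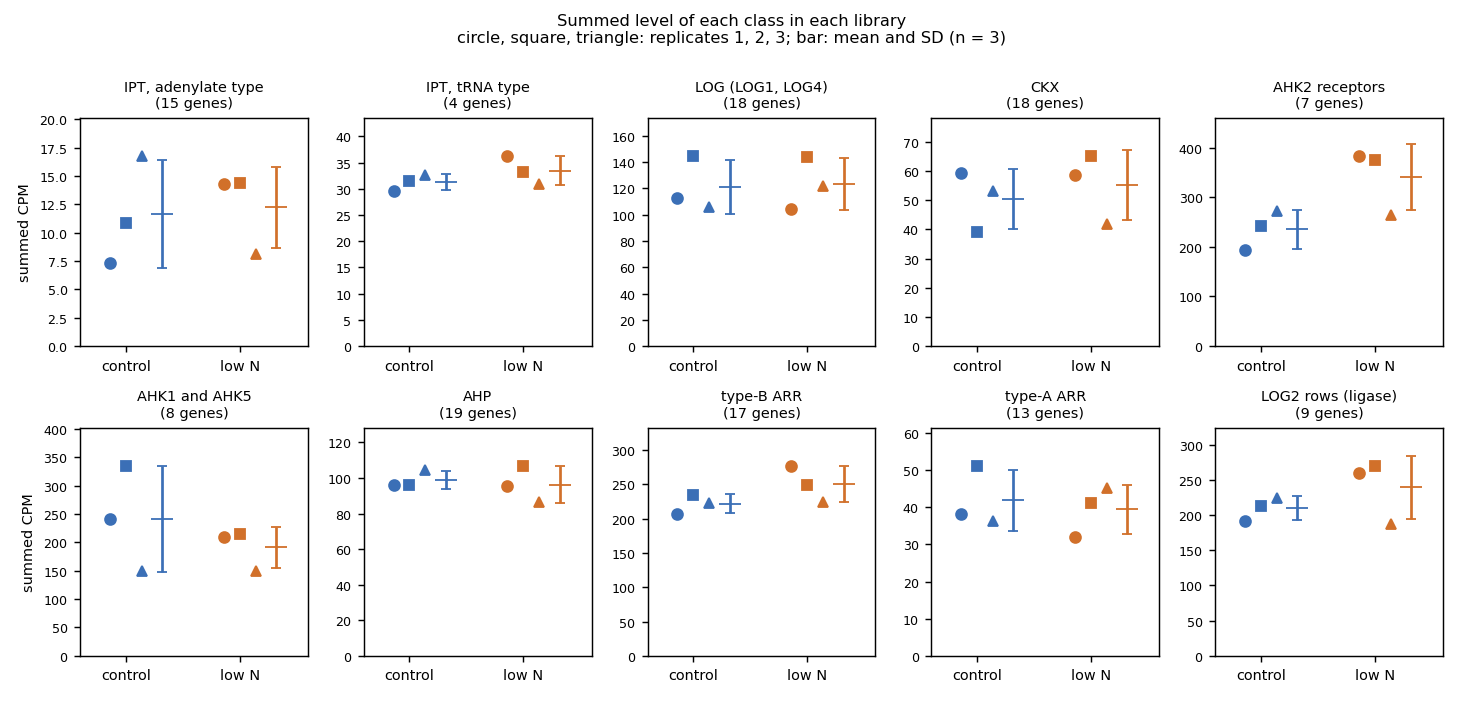
Summed CPM (y axis) of all genes of each class in each library, control in blue and low nitrogen in orange, with the mean and SD of 3 libraries. The AHK2 receptors were at 236 ± 39.4 CPM in the control group and 341 ± 66.7 CPM under low nitrogen, and in every class the ranges of the 2 groups overlap.

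Phosphotransfer genes had a median log2 fold change of -0.04 over 8 tested genes. AHP proteins carry the phosphate from the receptor to the nucleus. The AHP1 gene Nitab4.5_0000059g0300 was at 44.8 ± 4.12 CPM in the control group and 44.2 ± 8.93 CPM under low nitrogen. The smallest p was that of AHP1 (Nitab4.5_0001949g0030), at 3.33, 2.55 and 2.83 CPM across control libraries and at 1.40, 1.56 and 1.66 CPM under low nitrogen. Every low nitrogen library of this gene lay below every control (log2 fold change -0.91, SE 0.27, unadjusted p 0.0116, edgeR adjusted p 0.367). AHP1 (Nitab4.5_0008107g0010) was at 1.22, 1.95 and 5.17 CPM across control libraries and at 1.19, 1.81 and 1.66 CPM under low nitrogen, with control replicate 3 above the rest. Its log2 fold change was -0.84, and -0.04 without that library. AHP1 (Nitab4.5_0000962g0120) was at 1.62 ± 0.60 and 2.33 ± 0.531 CPM. The genes named AHP2 and AHP4 were all too sparse to test. The sum over 19 genes was 98.9 ± 5.05 CPM in the control group and 96.3 ± 10.4 CPM under low nitrogen.

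Type-B regulators, the transcription factors of the pathway, had 0 of 11 tested genes at an unadjusted p under 0.05, against 11.8% of all genes. There was 1 higher gene without control replicate 2 (5.32% of all genes) and 1 without low nitrogen replicate 3 (7.25%). All tested members were named ARR2. Nitab4.5_0001318g0010 had the smallest p, at 8.04, 12.6 and 9.77 CPM across control libraries and at 14.3, 13.8 and 11.9 CPM under low nitrogen. Its groups overlapped through control replicate 2 (log2 fold change 0.40, SE 0.20, edgeR adjusted p 0.471). Nitab4.5_0000041g0320 was at 31.0, 43.1 and 48.3 CPM and at 74.8, 52.0 and 35.1 CPM, so that low nitrogen replicate 1 alone stood above the range of the others by a wide margin. Nitab4.5_0001097g0090 was at 36.6 ± 3.60 and 42.4 ± 6.89 CPM. Nitab4.5_0005180g0030 was at 51.5 ± 4.998 and 53.2 ± 4.23 CPM. Fold changes ran from -0.06 to 0.40 (log2) over the class, the narrowest range of the classes with at least 5 tested genes. The sum over 17 genes was 222 ± 13.9 CPM in the control group and 250.2 ± 26.5 CPM under low nitrogen.

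Type-A regulators are early targets of the pathway and are used as a readout of cytokinin response. Of 13 genes, 8 were tested, 3 with fold changes above 0 and 5 below, against 50.3% of all genes above 0. There were 4 of 8 above 0 without control replicate 2 (50.5% of all genes) and 6 of 11 with no filter on low counts (48.0%). With any other 1 library left out, 2 or 3 of 8 were above 0 (48.5% to 50.6%). ARR3 (Nitab4.5_0003694g0060) was at 6.33, 6.45 and 5.24 CPM across control libraries and at 3.29, 3.62 and 3.88 CPM under low nitrogen. All low nitrogen libraries lay below all controls, with means of 6.01 ± 0.669 and 3.60 ± 0.299 CPM (log2 fold change -0.74, SE 0.20, unadjusted p 0.00803, edgeR adjusted p 0.357). The value stayed between -0.84 and -0.68 when any 1 library was left out. ARR3 (Nitab4.5_0009074g0010) overlapped, at 10.9, 18.1 and 12.04 CPM and at 11.8, 13.8 and 17.8 CPM. ARR3 (Nitab4.5_0003786g0010) was at 3.27 ± 0.169 and 2.503 ± 0.617 CPM, and ARR3 (Nitab4.5_0000642g0280) at 4.45 ± 1.22 and 3.48 ± 0.199 CPM. Their edgeR adjusted p were 0.593 and 0.601. The 4 ARR16 genes held at most 20 counts each, and ARR6 (Nitab4.5_0002965g0020) was at 1.31 ± 0.107 and 1.58 ± 0.278 CPM. Summed, type-A transcripts were at 41.9 ± 8.16 CPM in the control group and 39.4 ± 6.69 CPM under low nitrogen.

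**Figure D4:**
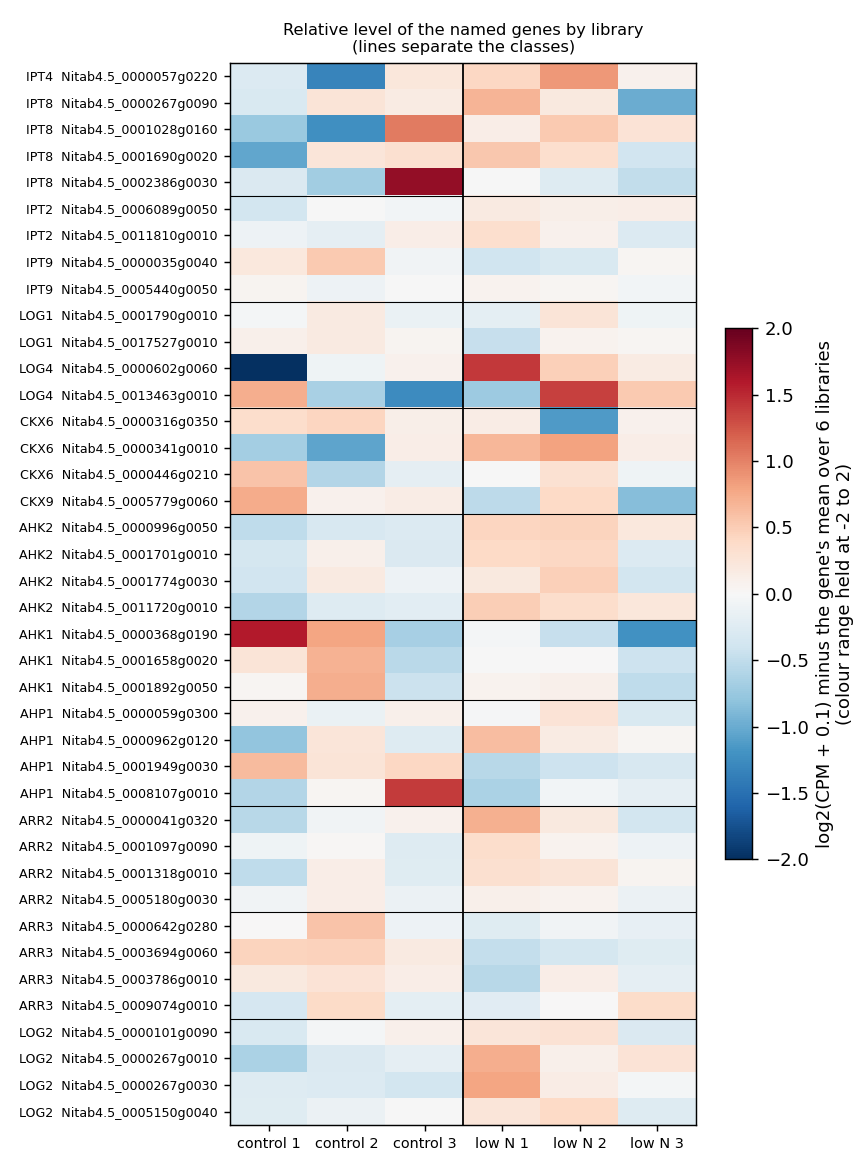
Level of each named gene in each library relative to its own mean, as log2(CPM + 0.1) minus the mean of 6 libraries, with lines between classes and control to the left of the vertical line. The AHK2 genes Nitab4.5_0000996g0050 and Nitab4.5_0011720g0010 are below their mean in all controls and above it in all low nitrogen libraries, whereas IPT8 (Nitab4.5_0002386g0030) and AHP1 (Nitab4.5_0008107g0010) stand out in control replicate 3.

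The ubiquitin ligase genes named LOG2 had 2 of 7 tested members higher at an unadjusted p under 0.05, against 6.1% of all genes. The count was 0 with DESeq2, with the replicate block, without any one of the control libraries and without low nitrogen replicate 1. In Arabidopsis this ligase takes part in the control of amino acid export. Nitab4.5_0000267g0010 was at 1.46, 1.88 and 2.05 CPM across control libraries and at 3.92, 2.498 and 2.84 CPM under low nitrogen, a log2 fold change of 0.77 (SE 0.30, edgeR adjusted p 0.410). Nitab4.5_0000267g0030 was at 3.49, 3.45 and 3.26 CPM and at 7.35, 4.68 and 4.09 CPM, giving a log2 fold change of 0.66 (SE 0.28, edgeR adjusted p 0.420). Without low nitrogen replicate 1 the value of the second was 0.36. In both the groups did not overlap and low nitrogen replicate 1 was the highest. The LOG2 genes Nitab4.5_0000101g0090 (99.8 ± 13.7 and 112 ± 23.5 CPM) and Nitab4.5_0005150g0040 (78.7 ± 6.14 and 95.4 ± 21.4 CPM) overlapped.

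Further genes of the pathway, outside the naming rule, were read from a list of hydroxylation, glucosylation, transport, salvage and response genes. Of 240 genes 117 were tested, and 0 passed the edgeR threshold (smallest adjusted p 0.316). At an unadjusted p under 0.05, 12 were higher and 11 lower, against 6.1% and 5.66% of all genes, with 56 fold changes above 0 and 61 below, against 50.3% above 0 for all genes. Salvage enzymes held 7 of the 11 lower genes: of 17 tested salvage genes 7 were lower and 2 higher at that p. The count of lower salvage genes was 2, 5 and 7 without control replicates 1, 2 and 3 (2.76%, 4.96% and 6.69% of all genes lower in those settings). It was 3, 5 and 10 without low nitrogen replicates 1, 2 and 3 (3.34%, 4.71% and 7.14%). With control replicate 3 and low nitrogen replicate 1 both left out it was 2 (4.83%).

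Adenosine kinases, which convert adenosine and cytokinin ribosides to nucleotides, all had fold changes below 0, in 10 of 10 genes. ADK1 (Nitab4.5_0002963g0120) was at 253, 215 and 229 CPM across control libraries and at 91.9, 154 and 175 CPM under low nitrogen, a log2 fold change of -0.73 (SE 0.25, edgeR adjusted p 0.388). ADK2 (Nitab4.5_0003680g0040) was at 28.6, 27.2 and 29.7 CPM and at 20.1, 22.5 and 22.7 CPM, giving a log2 fold change of -0.39 (SE 0.12, edgeR adjusted p 0.368). In both genes every low nitrogen library was below every control, which held for 6 of the 10, against 8.54% of all genes. Over the 10 genes the log2 fold change ran from -0.73 to -0.33, and low nitrogen replicate 1 was the lowest library in 9 of them. Kinases of this kind also serve the general adenosine pool and the methyl cycle. Genes named APT3, for adenine phosphoribosyltransferase, were divided. APT3 (Nitab4.5_0000164g0190) was at 131 ± 4.99 and 89.8 ± 15.7 CPM, and APT3 (Nitab4.5_0002408g0030) was at 3.13 ± 1.05 and 6.88 ± 1.55 CPM. These genes were chosen after their values were seen.

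**Figure D5:**
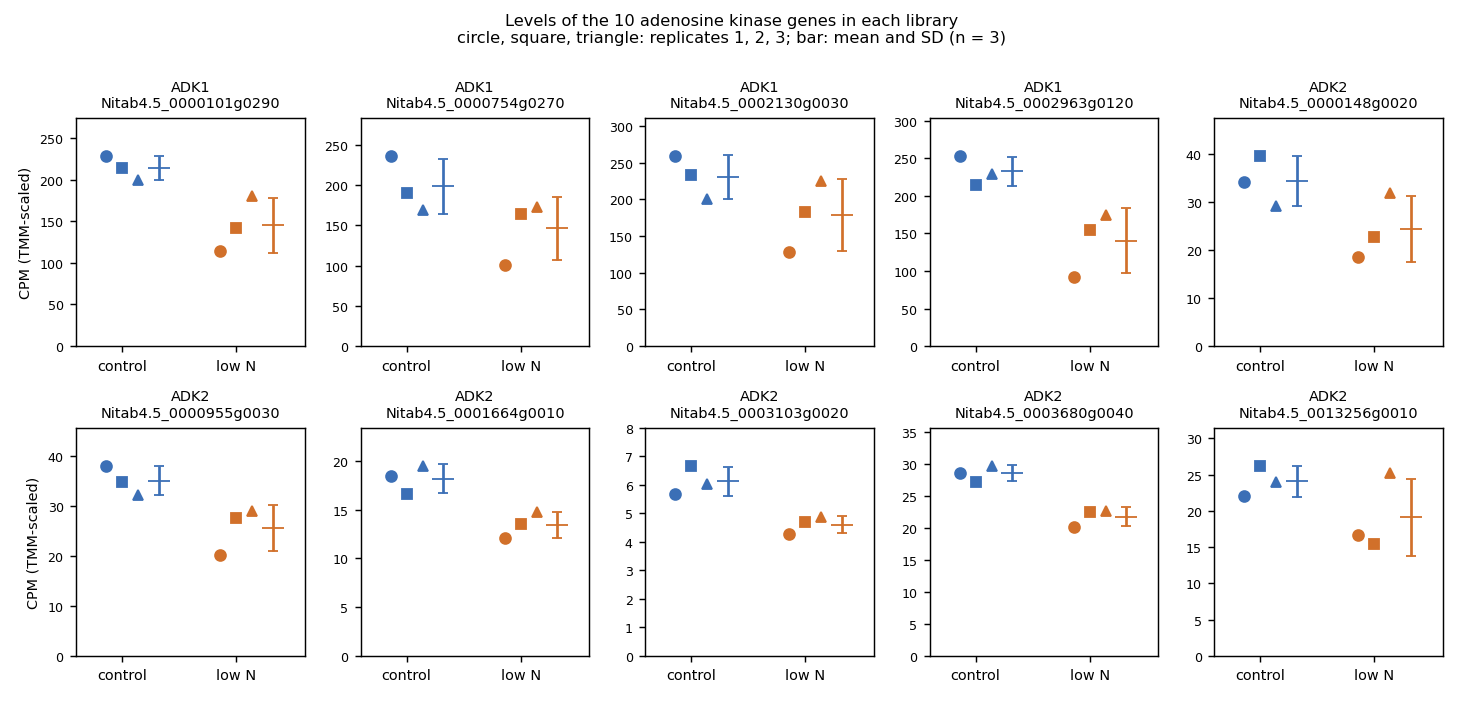
CPM after TMM scaling (y axis) of the 10 adenosine kinase genes in each library, control in blue and low nitrogen in orange, with the mean and SD of 3 libraries. The groups do not overlap in 6 of the 10 genes, and low nitrogen replicate 1 is the lowest library in 9.

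Cytokinin response factors (CRF) are transcription factors of the AP2/ERF family that cytokinin induces in Arabidopsis. At that unadjusted p, 3 of 21 tested CRF genes were higher and none (0) lower, against 6.1% and 5.66% of all genes. The higher count dropped to 1 without replicate 1 or 3 of the control group (2.87% and 8.60% of all genes). It was also 1 without replicate 1 or 2 of the low nitrogen group (3.17% and 4.63%). CRF2 (Nitab4.5_0009142g0010) was at 14.7, 16.5 and 15.9 CPM across control libraries and at 24.7, 23.3 and 18.7 CPM under low nitrogen, without overlap (log2 fold change 0.50, SE 0.15, edgeR adjusted p 0.367). Response regulators under rice names had 1 of 13 tested genes higher and 1 lower at that p. These counts are near the shares of all genes, 6.1% and 5.66%. RR23 (Nitab4.5_0002315g0010), a type-B name in rice, was at 10.6 ± 0.726 and 15.1 ± 2.84 CPM, and RR9 (Nitab4.5_0002208g0100), a type-A name in rice, was at 3.44 ± 0.478 and 1.97 ± 0.418 CPM. CYP735A2 genes, for the hydroxylase that makes trans-zeatin, had 0 of 5 tested genes at that p, against 11.8% of all genes. Their sum was 23.8, 23.1 and 25.7 CPM across control libraries and 44.6, 33.4 and 17.5 CPM under low nitrogen, which put low nitrogen on both sides of the control range.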

How the data were processed

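Polyadenylated RNA of 3 control and 3 low nitrogen seedling samples was sequenced, with libraries from a SMARTER kit per the labels' protocols. The authors deposited raw whole-number read counts per gene, with identifiers of the Nitab4.5 gene set. HISAT2 is named in the submitters' processing notes. The sources used here give neither its version nor how reads were counted, whether strand was used or how multiply mapped reads were handled. Groups and replicate numbers came from the sample titles.

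Genes were kept by edgeR's filterByExpr (38482 of 69500). The quasi-likelihood test of edgeR 4.0.16 (R 4.3.3, glmQLFTest after glmQLFit, TMM factors) compared the groups over all 6 libraries, and p-values were adjusted by Benjamini-Hochberg across every tested gene, with 0.05 as the threshold. Alternatives were DESeq2 1.42.0, limma-voom from limma 3.58.1, other scaling factors, filters, a replicate block and libraries left out. The edgeR, DESeq2 and limma-voom steps were tested on simulated data. Sums are over all members of a class. The heatmap uses a pseudocount of 0.1 CPM. The standard error is the log2 fold change divided by the root of the F statistic.

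In each class the gene with the most CPM and the 3 with the smallest p were named, with every tested IPT gene and every gene that any tool called. The other AHK2 genes, AHK5, ARR6 and all genes outside the member list were added after their values were seen. Members, lists and alternatives were chosen with earlier results of these data known. The separation of the LOG2 genes and the DESeq2 fits without libraries were added after seeing the data. From the photosynthesis list, CABIN1, CAB39, PSAT and PSAT2 were removed by name. No 2 libraries of a group were alike within counting noise (chi-square per degree of freedom at least 13.8), so none was treated as a duplicate deposit. This does not show that they came from separate plants. None (0) of the member identifiers or names matched the RefSeq gene table (ASM71507v2), so no coordinates are given.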

Additional observations from a re-analysis of the deposited data

How the results depend on the processing

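With edgeR, 0 members passed the threshold under every alternative run, and over all genes 0 to 11 passed when 1 library was left out. DESeq2 placed 588 of all genes and 2 members past it. With any 1 library left out it placed 0 to 6 members and 179 to 1669 of all genes past it. Both highest counts were those without control replicate 3, where 38926 genes were tested. With control replicate 3 and low nitrogen replicate 1 both left out, 2 members and 783 of 38402 genes passed. The count of members above 0 was 38 to 47 with 1 library left out (50.7% to 63.5% of those tested), against 48.5% to 50.6% of all genes. It was 54 of 107 with no filter on low counts (48.0% of all genes). With counts summed over identical names it was 10 of 18 names (49.7%). Members higher at an unadjusted p under 0.05 numbered 5 of 69, against 6.1% of all genes. With 1 library left out they numbered 2 to 7 (2.87% to 8.60% of all genes). There were 3 of 69 with DESeq2 (5.52%), 3 of 69 with the replicate block (4.33%) and 3 of 62 without the LOG2 genes. Without both libraries there were 8 of 72 (5.95%), and with summed names 1 of 18 (6.38%). Members lower numbered 3 (5.66% of all genes), with 2 to 6 when 1 library was left out (2.76% to 7.14%). With summed names 0 were lower (6.39%). The main test did not pair the samples by replicate number. Same-numbered libraries deviated from their group means with correlations of -0.32, 0.10 and -0.27 across genes. The largest value was 0.38, for control replicate 3 with low nitrogen replicate 1, and the best partner of control replicate 1 was low nitrogen replicate 3 (0.27). Deviations within a group sum to 0, so these values cannot show whether samples were paired by design.

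Some named genes changed sign, none of them past the adjusted threshold, and the cause was not tested. With 1 library left out, log2 fold changes ran from -0.52 to 0.093 for AHK1 (Nitab4.5_0001892g0050), -0.18 to 0.11 for AHP1 (Nitab4.5_0000059g0300), -0.015 to 0.13 for ARR2 (Nitab4.5_0005180g0030), -0.092 to 0.34 for ARR3 (Nitab4.5_0009074g0010) and -0.17 to 0.44 for CKX6 (Nitab4.5_0000446g0210). They ran from -0.046 to 0.27 for IPT2 (Nitab4.5_0011810g0010), -0.36 to 0.41 for IPT8 (Nitab4.5_0000267g0090), -0.11 to 1.43 for IPT8 (Nitab4.5_0001028g0160), -0.078 to 0.48 for IPT8 (Nitab4.5_0001690g0020) and -1.41 to 0.27 for IPT8 (Nitab4.5_0002386g0030). For IPT9 (Nitab4.5_0005440g0050) the range was -0.0059 to 0.074 and for LOG1 (Nitab4.5_0001790g0010) -0.15 to 0.091. Without both libraries, AHP1 (Nitab4.5_0000059g0300) was at 0.023, AHP1 (Nitab4.5_0008107g0010) at 0.12, ARR2 (Nitab4.5_0001097g0090) at -0.0053, ARR2 (Nitab4.5_0005180g0030) at -0.060, IPT8 (Nitab4.5_0000267g0090) at -0.30 and LOG1 (Nitab4.5_0001790g0010) at 0.012. IPT8 (Nitab4.5_0000267g0090) was also at -0.087 with limma-voom and at -0.061 with the replicate block. Depth limits the sparse members: 60 of 129 could not be tested.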

Other observations

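Of 29 tested conjugation genes, 0 passed the edgeR threshold, against 0% of all genes. An unadjusted p under 0.05 was reached by 2 genes with raised levels (6.1% of all genes) and 3 with reduced levels (5.66%). DESeq2 placed 2 of the 29 past its threshold, both reduced and both named ZOG1, against 0.819% of all genes. ZOG1 is the name of a bean enzyme that stores zeatin as a glucoside, and it covers 65 tobacco genes, so that the substrate of each is not known from the name. ZOG1 (Nitab4.5_0000562g0080) was at 15.6, 21.2 and 8.14 CPM in replicates 1 to 3 of the control group and at 3.78, 2.75 and 4.79 CPM in low nitrogen replicates 1 to 3 (log2 fold change -1.99, SE 0.38, edgeR adjusted p 0.316, DESeq2 adjusted p 0.000424). ZOG1 (Nitab4.5_0000082g0170) was at 19.7, 24.5 and 10.5 CPM and at 2.87, 6.87 and 5.27 CPM, giving a log2 fold change of -1.86 with an SE of 0.40 (DESeq2 adjusted p 0.00190). In both genes control replicate 3 was the lowest control and still above all low nitrogen libraries. A further ZOG1 gene (Nitab4.5_0000636g0130) had the opposite order, at 7.79 ± 2.11 CPM in the control group and 13.3 ± 1.67 CPM under low nitrogen (SD, n = 3). Its log2 fold change was 0.78 (SE 0.23, edgeR adjusted p 0.363, DESeq2 adjusted p 0.159). These genes were chosen from 17 tested ZOG1 genes after their values were seen. How they hold with libraries left out is not given here.

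Purine permeases of the PUP family take up adenine and cytokinin bases in Arabidopsis. At an unadjusted p under 0.05, 4 of 31 tested transport genes were higher and none (0) lower, against 6.1% and 5.66% of all genes. With 1 library left out, 0 to 7 were higher (2.87% to 8.60% of all genes) and 0 to 5 lower (2.76% to 7.14%). PUP11 (Nitab4.5_0001096g0050) was at 2.36, 6.002 and 5.88 CPM in the controls and at 8.47, 19.2 and 8.60 CPM in low nitrogen, with low nitrogen replicate 2 far above the rest (log2 fold change 1.35, SE 0.46, edgeR adjusted p 0.386). PUP11 (Nitab4.5_0002145g0010) had the same library at the top, with 5.46, 11.5 and 5.76 CPM in low nitrogen and 1.46, 2.33 and 5.17 CPM in the controls.

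One sparse oxidase gene was seen almost solely in 1 library. CKX3 (Nitab4.5_0010540g0020) held 39 counts in low nitrogen replicate 2, 1 count in control replicate 3 and 0 in each of the other libraries. The type-A gene ARR3 (Nitab4.5_0017864g0010) held 40 counts in control replicate 2 and 22 in low nitrogen replicate 2, against 2 to 12 in the other libraries. Both were chosen after their values were seen.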
